A study of Mus musculus with 18 samples.

Results

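T cells signal through the T-cell receptor complex and its coreceptors. Of the genes for this signalling, 10 were followed through the whole-genome bisulfite sequencing (WGBS) of splenic cells. They were the coreceptors Cd4, Cd8a and Cd8b1, the CD3 chains Cd3e and Cd3g, and the zeta chain Cd247. The others were the kinases Lck and Zap70 and the inhibitory receptors Cd5 and Cd6. Members were the listed regions that overlap the body of one of the 10 genes, extended by 10 kb on each side, in GENCODE gene models of mm10. The CD11b+ table listed 411770 regions, 168 of them members, and that of CD4+ cells listed 553467, of which 214 were members. All 10 genes had members in both tables, from 4 regions at Cd3g to 58 at Cd247 in CD11b+ cells and from 5 at Cd8a to 61 at Cd247 in CD4+ cells. One region lay in the windows of both Cd3e and Cd3g and was counted once.

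The samples were CD11b+ myeloid cells and CD4+ cells drawn from mouse spleen on magnetic columns, from mice labelled Dnmt3a+/+ (WT) or Dnmt3aR878/+ (R878H/+). In the mutant mice a floxed allele is switched to Dnmt3a R878H by Vav1-iCre, a Cre active throughout the blood lineage, so that the heterozygous mutation is expressed in blood cells. How complete the switch was in these cells is not given. For its transplants the study counted as Dnmt3a+/+ both mice with Cre but no floxed allele and mice with the floxed allele but no Cre, and which of these gave the WT libraries is not stated in the labels. The study describes its mice as young adults matched for sex and age, and the labels give no age for these libraries. Each of the 4 groups had 4 mice; in R878H/+ CD11b+ cells, 2 of the mice had a second library entry, giving 6 entries.

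Each table holds 1 mean per genotype and region, in percent methylation over the CpGs of the region, without a value for a single mouse and without read depth. No comparison could therefore be tested across mice, no mean carries an error here, and the values below describe these groups. The first mean of each row was read as WT, because the study shows WT as the more methylated genotype, and every direction rests on that reading. A region was called a differentially methylated region (DMR) by the study's criteria: more than 10 CpGs, means over 20 percentage points apart, and a q-value under 0.05. The tables count the cytosines of a CpG on each strand, so their number of CpGs is called CpG cytosines here. Listed regions held between 8.62% (Cd3g, CD11b+) and 53.2% (Cd5, CD4+) of the CpG sites of a gene's window, and the remaining sites were not examined. The library titles carry numbers in 2 series, whose meaning the labels do not give. All 4 R878H/+ CD4+ libraries and 1 of the 4 WT CD4+ libraries belong to the second series, so in CD4+ cells this series and the genotype cannot be told apart. All 4 R878H/+ CD11b+ mice have an entry in the first series, and 2 of them also in the second. Differences between the cell types in R878H/+ are therefore mixed with the series as well.

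As background, an antigen receptor on a T cell binds peptide on MHC but has no signalling tail of its own. The CD3 chains and the zeta chain carry the phosphorylation motifs, CD4 or CD8 brings the kinase LCK to the complex, and LCK phosphorylates the motifs to which ZAP-70 then binds. CD5 and CD6 are scavenger-receptor proteins of the T-cell surface that damp or tune this signal. DNMT3A places methyl groups on unmethylated CpGs, and the R878H exchange in its catalytic domain corresponds to human R882H, a common mutation of clonal haematopoiesis. Regulatory sites of genes in use are often low in CpG methylation, while the bodies of genes and the DNA of silent CpG-poor sites are usually high.

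At the coreceptor genes, methylation was mostly high in both cell types and lower in R878H/+ cells. Cd4, whose product recognises MHC class II, lies at chr6:124864692-124888221 on the minus strand and had 18 regions in CD11b+ and 14 in CD4+ cells. The median region of Cd4 had 85.7% methylation in WT and 70.8% in R878H/+ CD11b+ cells, against 80.2% and 68.8% in CD4+ cells. All 14 CD4+ regions were lower in R878H/+ cells, by 4.73 to 23.3 points, and 17 of the 18 CD11b+ regions were lower. Around the Cd4 start, regions were listed in CD11b+ cells and none in CD4+ cells. The region centred 21 bp before that start went from 45.1% in WT to 30.4% in R878H/+ CD11b+ cells, and the next one, 440 bp before it, from 87.6% to 81.1%. The largest losses of the Cd4 window lay behind the gene, inside P3h3. There, chr6:124854858-124854931 fell from 54.4% to 24.3% in CD11b+ cells, and chr6:124854858-124854967 from 75.03% to 51.7% in CD4+ cells. Such flanking regions are attributed to Cd4 by distance alone. No region of the Cd4 window passed the q-value criterion in either cell type.

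Between the cell types, Cd4 differed most in an intron. A region 4470 bp behind the start had 58.9% methylation in WT and 46.9% in R878H/+ CD4+ cells, and its counterpart in CD11b+ cells had 90.5% and 81.8%. The WT difference between the cell types was 31.7 points. Genotype differences there were 11.9 points in CD4+ and 8.75 points in CD11b+ cells. This pair was picked as the widest of the 6 region pairs at Cd4, so the sizes are not compared further. The median WT difference of these pairs was 1.875 points, with CD4+ cells higher, and 1 pair was higher in CD4+ cells by over 20 points.

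Cd8a and Cd8b1 encode the chains of the coreceptor of cytotoxic T cells and sit side by side on chromosome 6. They had 11 regions in each cell type and no DMR. In the paired region of Cd8a 4167 bp before the start, CD11b+ cells had 94.4% in WT and 91.9% in R878H/+, while CD4+ cells had 72.0% and 55.6%. The genotype difference was thus 2.49 points in one cell type and 16.3 points in the other. Farther upstream, a Cd8a region listed only in CD4+ cells went from 79.95% to 60.9%. At Cd8b1 no region exceeded a loss of 11.8 points, and its regions had a WT median of 92.2% in CD11b+ and 87.3% in CD4+ cells. The single region above 5 points of gain in this pair of genes, from 79.2% to 84.3% in CD11b+ cells, lies inside Smyd1, a gene of muscle.

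**Figure D1:**
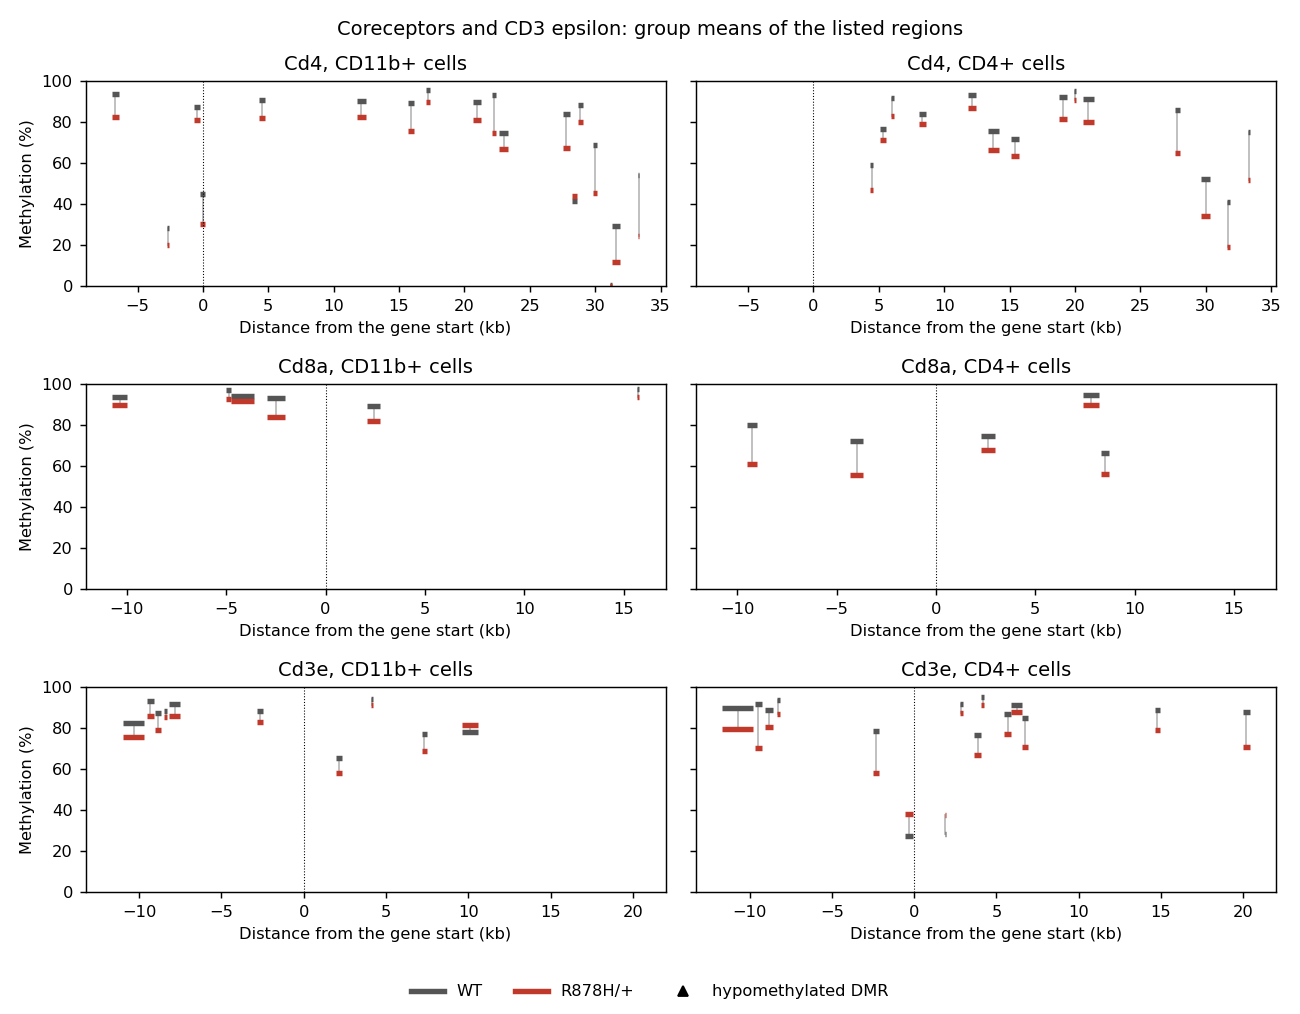
Group means of the listed regions at Cd4, Cd8a and Cd3e in CD11b+ (left) and CD4+ cells (right), in percent methylation against the distance from the gene start in kb along the direction of transcription. Dark bars are WT and red bars R878H/+ means of 4 mice, bar width is region length, and grey lines join the genotypes; red lies below dark in all 14 Cd4 regions of CD4+ cells and above it in the 2 Cd3e regions close to the start.

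The CD3 chains showed opposite changes within a few kilobases. Cd3e encodes CD3 epsilon, which is needed to bring the receptor to the surface, and lies at chr9:44998740-45009627 on the minus strand. In WT CD4+ cells, the lowest regions of its window were one at the start (27.4%) and one in an intron, 1901 bp behind it (28.2%), whereas the other 13 regions were between 76.6% and 95.1%. Both low regions were higher in R878H/+ CD4+ cells, at 38.2% and 37.4%, and the other 13 were lower. No Cd3e region of either cell type passed the q-value criterion, so neither the gains nor the losses are DMRs. The largest losses of Cd3e lay upstream, where chr9:45018871-45019302 fell from 91.8% to 70.1% and chr9:45011782-45012101 from 78.5% to 58.0%. In CD11b+ cells neither low region was listed, and the 10 regions of Cd3e changed by -8.63 to 3.52 points.

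The intronic region that gained methylation, chr9:45007687-45007766 (GRCm38.p6, plus strand), is shown with its 5 CpG sites in capitals, because it is the shortest stretch of Cd3e with a gain. The RefSeq promoter of Cd3e, chr9:45009562-45009861 on the minus strand, overlaps the region at the start and is shown in the direction of transcription with its 8 CpG sites in capitals. Over all 32851 promoters of this length, the median number of CpG sites was 7.
Cd3e intron, gained in CD4+: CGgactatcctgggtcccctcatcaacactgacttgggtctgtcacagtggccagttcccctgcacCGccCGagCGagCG
Cd3e promoter: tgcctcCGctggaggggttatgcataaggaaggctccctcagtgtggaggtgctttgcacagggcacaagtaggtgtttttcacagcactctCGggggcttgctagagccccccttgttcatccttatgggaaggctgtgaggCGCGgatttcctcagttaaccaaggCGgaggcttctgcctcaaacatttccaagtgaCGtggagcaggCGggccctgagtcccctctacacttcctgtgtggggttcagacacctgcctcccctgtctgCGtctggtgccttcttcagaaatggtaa

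Cd3g encodes CD3 gamma and lies at chr9:44969572-44980431, with Cd3d next to it. It had 4 regions in CD11b+ and 10 in CD4+ cells. Its lowest CD4+ region, 2841 bp behind the start, again differed in sign from the rest, with 40.1% in WT and 44.6% in R878H/+ cells, and did not pass the q-value criterion. The other 9 were lower, by up to 17.2 points at chr9:44989253-44989654, the region it shares with the Cd3e window. An intronic region was listed at nearly the same place in both tables, and it went from 75.5% to 62.0% in CD11b+ and from 80.4% to 66.1% in CD4+ cells.

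Cd247 had the most regions and the widest range. It encodes the zeta chain, which carries most of the signalling motifs of the complex, and lies at chr1:165788681-165877277 on the plus strand. Its far end overlaps Pou2f1. In CD11b+ cells 52 of 58 regions were lower and 6 higher in R878H/+, and in CD4+ cells 54 of 61 were lower and 7 higher. Differences ran from -38.2 to 10.8 points in CD11b+ cells and from -34.0 to 17.2 points in CD4+ cells.

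Each cell type had 1 DMR at Cd247, and they were different sites. In CD11b+ cells it was chr1:165834382-165834888, in an intron 45954 bp behind the start, with 32 CpG cytosines and a fall from 79.2% to 49.3%. The overlapping CD4+ region, chr1:165834482-165834881, went from 89.9% to 73.7% and was no DMR. The CD4+ DMR was chr1:165786236-165786746, centred 2190 bp before the start, with 16 CpG cytosines and a fall from 78.1% to 44.1%. At that site CD11b+ cells went from 48.9% to 18.0% over 10 CpG cytosines, too few for a DMR. WT CD11b+ cells were lower than WT CD4+ cells at the intronic site. At the upstream site the CD11b+ region spans 239 bp of the 511 bp of the CD4+ DMR. The CD11b+ mean leaves out the rest of that DMR, so WT levels of the cell types are not compared there.

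The 300 bases with the most CpG sites are shown for each Cd247 DMR and were picked by sequence alone. Each mean covers its whole region, so which of these sites lost methylation cannot be seen. The stretches are chr1:165834511-165834810 for the intronic and chr1:165786362-165786661 for the upstream DMR (GRCm38.p6, plus strand), with 14 and 10 CpG sites in capitals.
Cd247 intron, lost in CD11b+: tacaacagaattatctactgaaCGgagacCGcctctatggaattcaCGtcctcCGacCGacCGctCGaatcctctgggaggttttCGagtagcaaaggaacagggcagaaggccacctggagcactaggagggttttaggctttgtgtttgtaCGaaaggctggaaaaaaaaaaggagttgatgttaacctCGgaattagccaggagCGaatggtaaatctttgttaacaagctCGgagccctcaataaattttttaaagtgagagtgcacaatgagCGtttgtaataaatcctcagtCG
Cd247 upstream, lost in CD4+: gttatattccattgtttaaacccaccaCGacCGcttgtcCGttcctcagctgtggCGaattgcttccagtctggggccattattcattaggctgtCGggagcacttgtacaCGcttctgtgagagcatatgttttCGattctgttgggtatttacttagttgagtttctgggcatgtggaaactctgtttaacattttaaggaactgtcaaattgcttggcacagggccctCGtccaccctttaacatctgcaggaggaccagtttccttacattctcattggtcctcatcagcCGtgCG

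Just behind the start, Cd247 changed the other way in CD4+ cells. The region chr1:165788906-165789814, with 32 CpG cytosines, went from 30.8% in WT to 43.6% in R878H/+ cells. Farther into the gene, regions centred 1975, 2602 and 5092 bp behind the start went from 31.1% to 43.2%, from 37.2% to 48.6% and from 45.4% to 56.2%. Others lay deeper in the gene, at 27820 bp (33.8% to 45.7%) and at 49104 bp (18.7% to 35.9%), and the latter was the largest gain of any member in CD4+ cells. None of these regions passed the q-value criterion. They alternated with regions that fell, such as the one 2161 bp behind the start, which went from 44.4% to 40.9%.

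CD11b+ cells were highly methylated at those of these sites where their regions overlapped. WT CD11b+ means were 78.5% over the first part of the region at the start, 90.3% at 1975 bp and 90.6% at 5092 bp. The CD11b+ region at the start also rose, from 78.5% to 87.6%, and the other 2 fell. At 49104 bp a CD11b+ region ended where the CD4+ region began, so most of that site had no CD11b+ value. The short intronic region with a gain, chr1:165790625-165790688 (plus strand), is made of similar short units, and its 6 CpG sites are in capitals.
Cd247 intron, gained in CD4+: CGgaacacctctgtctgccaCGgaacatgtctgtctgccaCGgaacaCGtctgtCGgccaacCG

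**Figure D2:**
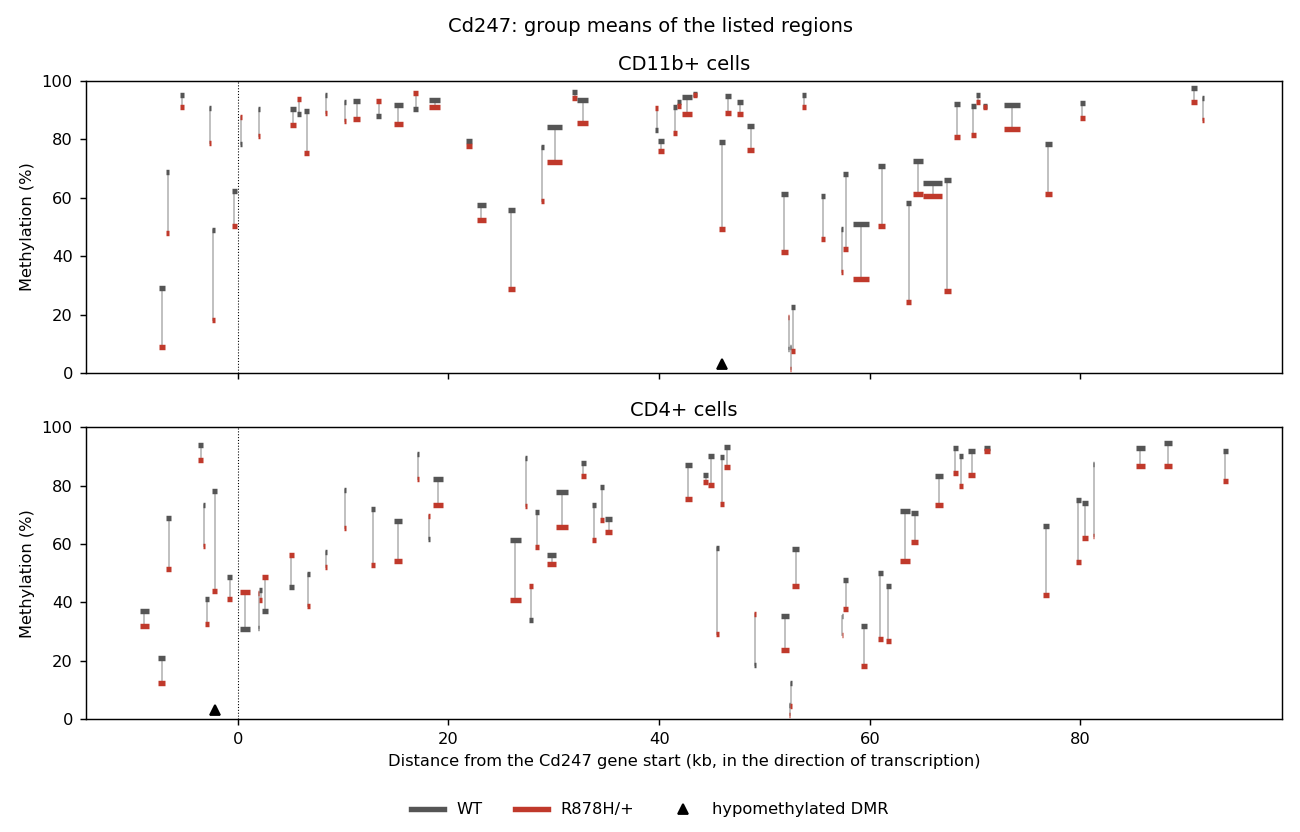
Group means of the listed regions at Cd247 in CD11b+ (top) and CD4+ cells (bottom), in percent methylation against the distance from the gene start in kb; dark bars are WT, red bars R878H/+, bar width is region length and triangles mark DMRs. Behind the start the CD4+ WT bars sit near 31% to 45% with red bars above several of them, while the CD11b+ bars there are mostly above 75%.

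Lck encodes the SRC-family kinase that starts receptor signalling, and lies at chr4:129548344-129573641 on the minus strand. GENCODE gives it a distal start and a proximal one. Its DMR was found in CD4+ cells at chr4:129555238-129555929, over exons 2789 bp behind the proximal start. With 33 CpG cytosines, it fell from 52.9% in WT to 20.8% in R878H/+ cells. Next to it, towards the proximal start, methylation stepped down to 26.3% in WT and 9.32% in R878H/+, and then to 5.75% and 1.25%. On the far side of the DMR it was 79.9% and 62.1%. Of these 4 neighbouring regions, the DMR lost most.

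In CD11b+ cells a region that overlaps the far end of the Lck DMR and reaches beyond it also fell, from 77.1% to 57.4%. Next to the DMR, towards the proximal start, the change went the other way. The region chr4:129556299-129556534 had 2.33% in WT and 28.9% in R878H/+ CD11b+ cells. This gain of 26.6 points was the largest of any member in either cell type, and it did not pass the q-value criterion. Its CD4+ counterpart was the region at 5.75% and 1.25%. The mean rests on 10 CpG cytosines of 9 CpG sites, and whether 1 mouse carries it cannot be seen in a group mean. Both stretches are shown on the plus strand of GRCm38.p6 with CpG sites in capitals, for the DMR as the 300 bases chr4:129555432-129555731 with the most CpG sites (14) and for the gain as the whole region.
Lck, lost in CD4+: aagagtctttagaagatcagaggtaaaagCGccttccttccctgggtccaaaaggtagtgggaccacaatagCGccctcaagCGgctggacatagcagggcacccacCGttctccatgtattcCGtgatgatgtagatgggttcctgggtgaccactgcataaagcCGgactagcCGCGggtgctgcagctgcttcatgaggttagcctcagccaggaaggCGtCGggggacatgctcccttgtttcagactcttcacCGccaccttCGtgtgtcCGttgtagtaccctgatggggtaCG
Lck, gained in CD11b+: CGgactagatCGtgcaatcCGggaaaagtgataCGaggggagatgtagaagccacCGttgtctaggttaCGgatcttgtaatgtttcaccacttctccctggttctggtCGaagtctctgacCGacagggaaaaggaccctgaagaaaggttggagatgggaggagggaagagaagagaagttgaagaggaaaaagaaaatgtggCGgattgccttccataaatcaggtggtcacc

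All 18 CD4+ regions of Lck were lower in R878H/+ cells, and 15 of the 18 CD11b+ regions. At the distal start, CD11b+ cells went from 65.0% to 49.98%, and no CD4+ region was listed there. Inside Fam167b, upstream of Lck, a region of both tables went from 66.9% to 44.5% in CD4+ and from 55.1% to 38.3% in CD11b+ cells.

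Zap70 encodes the kinase that docks on the phosphorylated zeta chain, and lies at chr1:36761798-36782818 on the plus strand. It had 10 regions in CD11b+ and 26 in CD4+ cells, and no DMR. Near an inner start, CD4+ cells had 18.0% in WT and 8.54% in R878H/+, where CD11b+ cells had 47.6% and 27.0%. Of the 5 region pairs of Zap70, the one before the first start had opposite genotype differences, with 54.7% in WT and 41.9% in R878H/+ CD4+ cells but 80.03% and 87.8% in CD11b+ cells. The gap between the cell types there was 25.3 points in WT and 45.9 points in R878H/+, the widest R878H/+ gap of any member pair.

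In CD4+ cells Zap70 lost most over a CpG-dense exon and behind the gene. Over the exon, chr1:36770901-36770970 fell from 76.6% to 47.4% and chr1:36771044-36771241 from 88.4% to 58.3%, and the region between them from 75.1% to 58.5%. Behind the gene, chr1:36789427-36789725 fell from 72.7% to 39.4%, the largest loss of the window. These regions failed the q-value criterion. All of them but chr1:36771044-36771241 have 10 CpG cytosines and could not be DMRs. The region chr1:36770901-36770970 is printed on the plus strand of GRCm38.p6, since it holds 8 CpG sites in 70 bases.
Zap70 exon, lost in CD4+: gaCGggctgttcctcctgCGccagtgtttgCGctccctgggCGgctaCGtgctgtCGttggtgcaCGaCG

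Cd5 and Cd6 encode the inhibitory receptors and lie near each other on chromosome 19, at chr19:10717116-10739002 and chr19:10789341-10830058, both on the minus strand. At Cd5, 27 of 28 CD4+ regions and all 11 CD11b+ regions were lower in R878H/+ cells. Upstream of Cd5, 3 neighbouring CD4+ regions between 4229 and 5790 bp before the start fell by 21.1 to 23.5 points, from 82.8% to 59.2%, from 80.2% to 59.2% and from 61.4% to 39.6%. The exception was the region at the start of the gene, which went from 35.6% to 42.1% over 10 CpG cytosines. No region of Cd5 passed the q-value criterion. Near an inner start, 18117 bp behind the first, the window had its largest loss, from 45% to 21.4%.

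The median pair of Cd5 differed more between the cell types than that of any other member gene. Of its 6 region pairs, 4 were lower in WT CD4+ than in WT CD11b+ cells by more than 20 points, and they were 3 intronic regions and 1 upstream region. CD4+ means were 62.1% to 70.3% in WT and 42.6% to 58.1% in R878H/+, and CD11b+ means were 87.2% to 93.1% and 76.8% to 87.0%. The gap was found in both genotypes, at 22.8 to 28.1 points in WT and 26.3 to 34.2 points in R878H/+.

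Cd6 held the largest CD4+ loss of all members. The intronic DMR chr19:10818391-10819049, 11338 bp behind the start and with 33 CpG cytosines, fell from 58.4% in WT to 23.2% in R878H/+ CD4+ cells. One CD11b+ region inside it had 13.9% in WT and 5.02% in R878H/+, and a second one, which overlaps the end of the DMR and reaches beyond it, had 80.1% and 65.9%. All 32 CD4+ regions of Cd6 were lower in R878H/+ cells, and 27 of the 28 CD11b+ regions. At the start of Cd6, CD11b+ cells went from 50.5% to 41.6%, and no CD4+ region was listed there. The 300 bases of the DMR with the most CpG sites, chr19:10818423-10818722 (GRCm38.p6, plus strand), hold 10 of them in capitals.
Cd6, lost in CD4+: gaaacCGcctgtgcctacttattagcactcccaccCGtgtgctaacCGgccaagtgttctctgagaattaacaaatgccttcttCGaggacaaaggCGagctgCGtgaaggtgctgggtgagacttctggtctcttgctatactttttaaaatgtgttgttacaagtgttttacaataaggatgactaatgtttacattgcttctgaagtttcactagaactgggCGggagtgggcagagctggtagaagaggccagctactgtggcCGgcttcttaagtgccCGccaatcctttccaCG

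**Figure D3:**
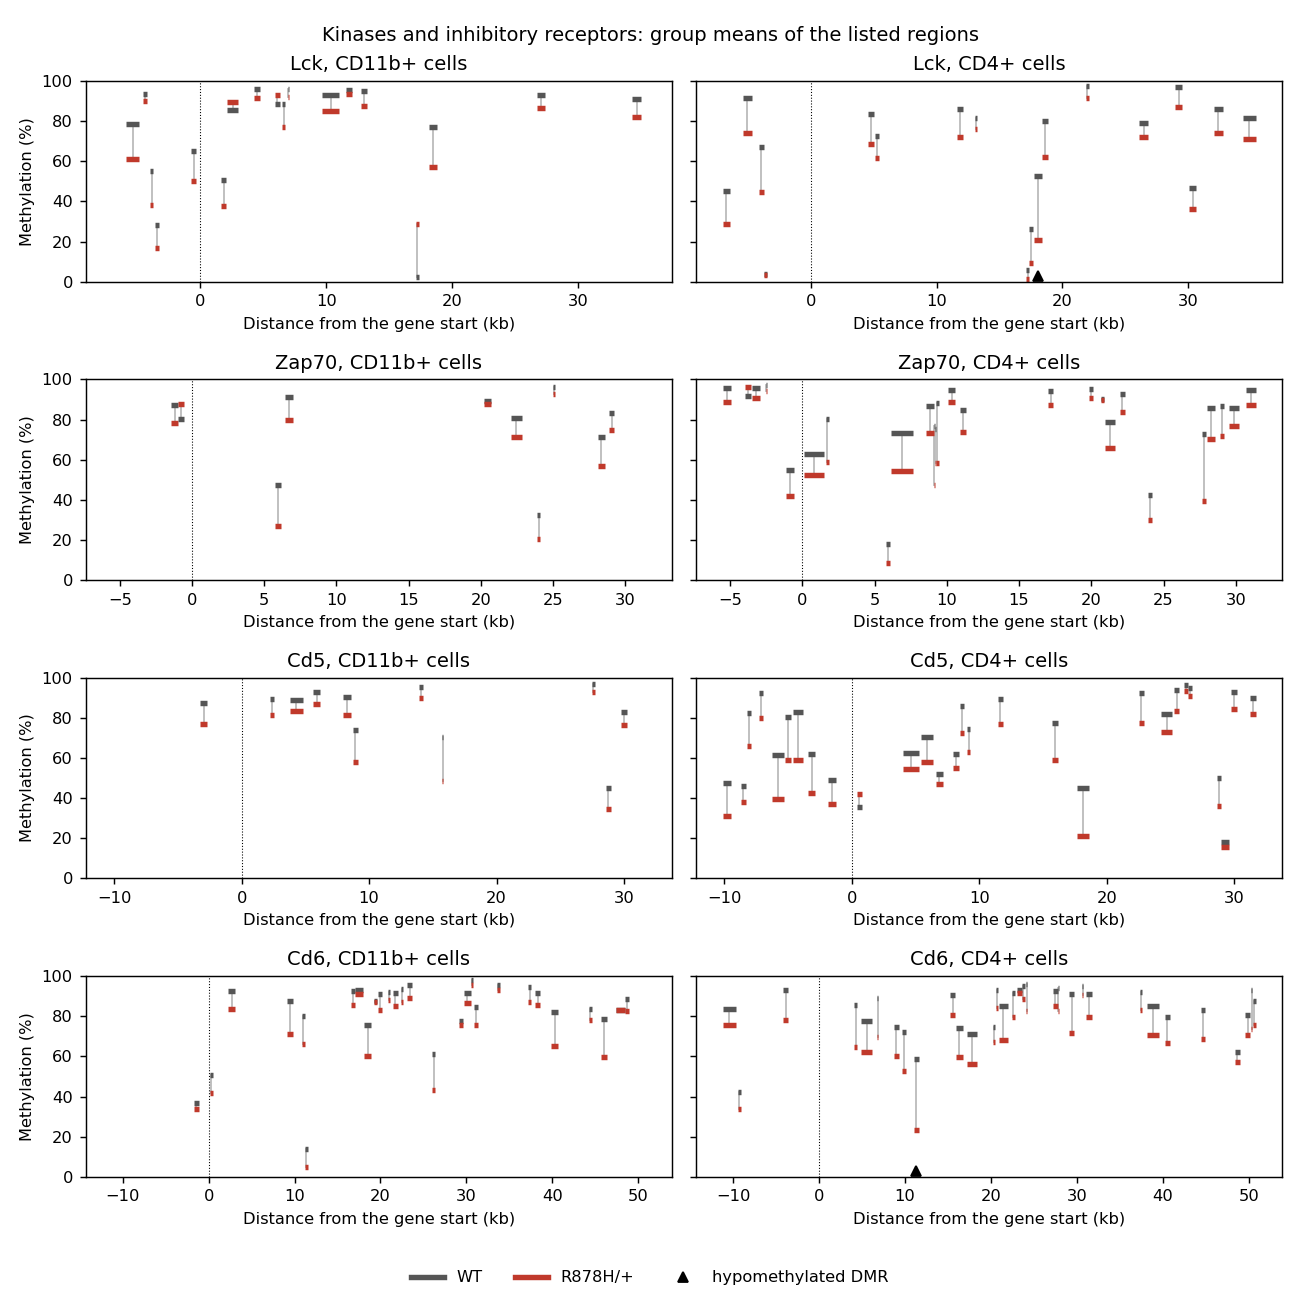
Group means of the listed regions at Lck, Zap70, Cd5 and Cd6 in CD11b+ (left) and CD4+ cells (right), in percent methylation against the distance from the gene start in kb. Dark bars are WT, red bars R878H/+ and triangles DMRs; the Lck region at 17225 bp rises from 2.33% to 28.9% in CD11b+ cells and its CD4+ counterpart stays under 6%.

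Over all members, the R878H/+ mean was lower than the WT mean in 91.1% of member regions for CD11b+ and 94.4% for CD4+ cells. Over all listed regions these shares were slightly higher, at 93.4% for CD11b+ and 95.5% for CD4+ cells. In CD11b+ cells the members' median was 88.3% in WT and 81.2% in R878H/+ with a median difference of -7.56 points, beside 88.9%, 82.0% and -6.55 points over all listed regions. In CD4+ cells the members' median was 80.3% in WT and 66.7% in R878H/+ with a difference of -10.3 points, beside 89.9%, 82.4% and -6.85 points. Each of the 10 genes had a more negative median in CD4+ cells than the whole CD4+ table, from -7.70 points at Cd3g to -12.3 points at Cd6. These medians describe regions, which are not replicates and which share the same mice.

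Large losses were counted against the same share of each table. In CD11b+ cells 13 members (7.74%) were lower by over 20 points, where 7.01% of all listed regions were. In CD4+ cells 24 members (11.2%) were lower by as much, where 6.23% of all listed regions were. The larger CD4+ loss of members held only for some WT levels. From 75% upwards the median difference was -10 points over members and -6.33 points over the table, but between 25% and 50% it was -8.28 and -12.9 points, and between 50% and 75% it was -12.2 and -14.3 points. By the DMR criteria, CD11b+ cells had 1 hypomethylated member against 0.576% of the table, and CD4+ cells had 3 against 0.665%. No member was a hypermethylated DMR, and such DMRs were 0.0126% of the CD11b+ and 0.000542% of the CD4+ table. The counts of DMRs are too small to set the members apart from the background.

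**Figure D4:**
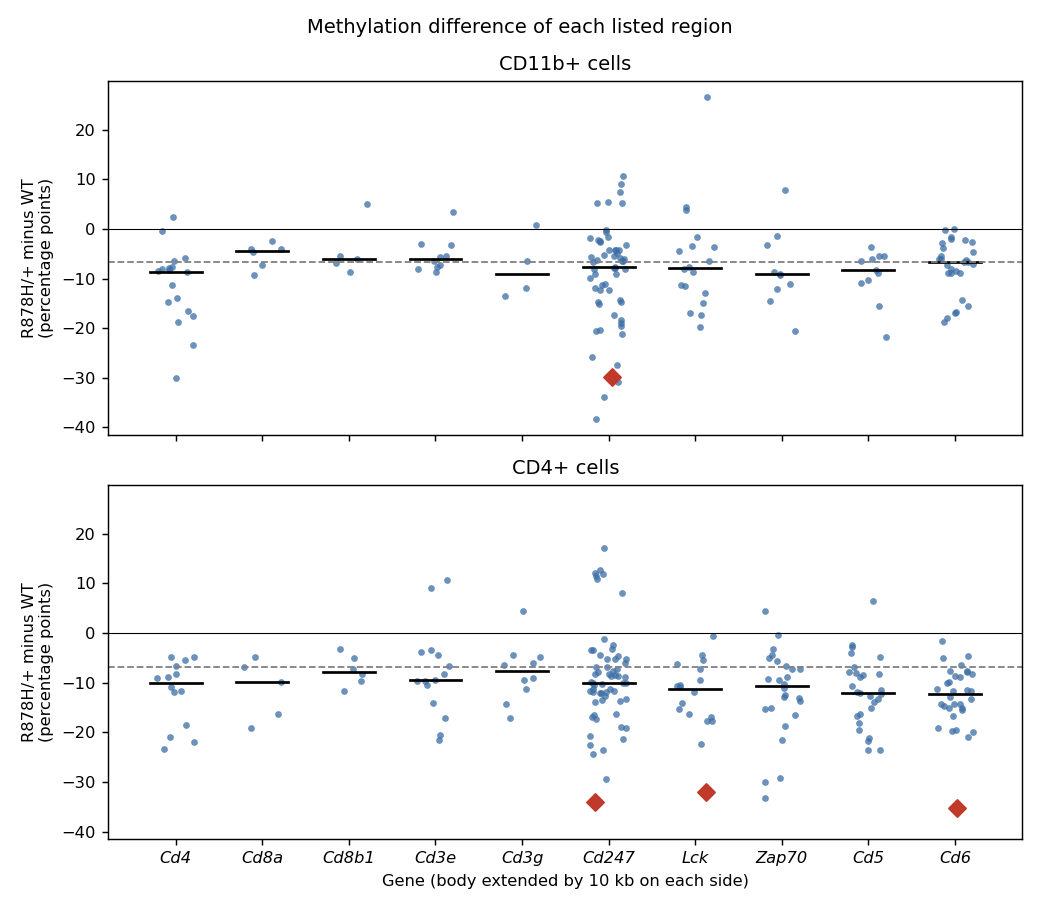
Difference between the R878H/+ and WT means of each listed region in percentage points, by gene, in CD11b+ (top) and CD4+ cells (bottom). Points are regions, red diamonds DMRs, black bars the median of a gene and dashed lines the median of all listed regions (-6.55 and -6.85 points); points above 0 are gains, which in CD4+ cells are mostly those of Cd247.

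Gains were counted in the same way. The R878H/+ mean was higher in 15 members (8.93%) of CD11b+ cells, beside 6.56% of the table, and in 12 members (5.61%) of CD4+ cells, beside 4.53%. Gains above 10 points were 2 members of CD11b+ cells, where the table has 0.610%, and 7 members of CD4+ cells (3.27%), where it has 0.182%. Of those 7, 6 lay at Cd247 and 1 at Cd3e. They had low to middling WT levels, and such regions are more common among members. WT levels between 25% and 50% were found in 30 CD4+ members (14.0%) and in 3.53% of the table. Within that class, 6 of 30 members gained over 10 points, beside 2.46% of the regions of the table. In WT CD4+ cells the 10 members with gains above 5 points had a median of 32.5% methylation, and a median of 2204.5 bp to the nearest start of the gene, against 10577.5 bp over all CD4+ members. Of these 10, 7 lay at Cd247. Most regions at a start did not gain: of 11 such CD4+ members 8 were lower and 3 higher in R878H/+ cells, with a median difference of -9.48 points.

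Marker genes of other cell types were read for the same gains. Gains above 10 points in CD4+ cells were listed for 8 of 221 regions at 10 marker genes of T cells. All of these genes but Cd3d, Cd2 and Cd28 are members, and the 7 member gains above 10 points are among the 8. The counts were 0 of 247 regions at 14 myeloid, 0 of 148 at 6 B-cell and 0 of 37 at 5 NK-cell marker genes. As 0.182% of all CD4+ regions gained as much, a count of 0 in lists of this size sets no list apart. In samples of sorted cells, a lower share of T cells and more methylation per T cell cannot be told apart. The purity of the fractions was not given for these libraries, and its part in the gains was not tested.

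Levels were then compared between the cell types where regions of the 2 tables overlapped by at least 50% of both, which held for 61 member pairs of 136883 pairs in all. The tables were segmented separately, so the rest of the regions have no such counterpart. Among WT means, CD4+ cells were lower than CD11b+ cells by over 20 points in 17 of 61 member pairs, beside 1.26% of all pairs, and higher by as much in 1 member pair, beside 4.19%. Among R878H/+ means the counts were 17 lower, beside 1.76%, and 2 higher, beside 5.00%. The 17 WT pairs were 7 of 21 at Cd247, 4 of 6 at Cd5, 2 of 5 at Zap70, 2 of 9 at Cd6, 1 of 6 at Cd4 and 1 of 2 at Cd8a, so that 10 of 40 remained without Cd247. Cd3e, Cd3g, Cd8b1 and Lck had none, though their low CD4+ regions near the starts had no paired region at Cd3e and Cd3g.

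The widest WT gap was in an intron of Cd247, where the pair at 5092 bp had 90.6% in CD11b+ and 45.4% in CD4+ cells. In R878H/+ cells the same pair had 84.8% and 56.2%, and the gap went from 45.2 to 28.6 points. This was the 1 of the 17 pairs in which CD4+ cells gained methylation. Over all 1730 pairs with a WT gap of this size, CD4+ cells gained in 15.3%. The WT CD4+ mean enters both the gap and the genotype difference, so these shares are not independent of how the pairs were picked. The median difference between the cell types over member pairs was -3.14 points in WT and -5.90 points in R878H/+, beside 1.23 and 1.08 points over all pairs. These medians depended on which pairs entered, and ran from -2.19 (without Cd247) to -7.57 points in WT and from -2.88 (80% overlap) to -13.3 points in R878H/+, with the values farthest from 0 for gene bodies alone or with 5 kb on each side.

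**Figure D5:**
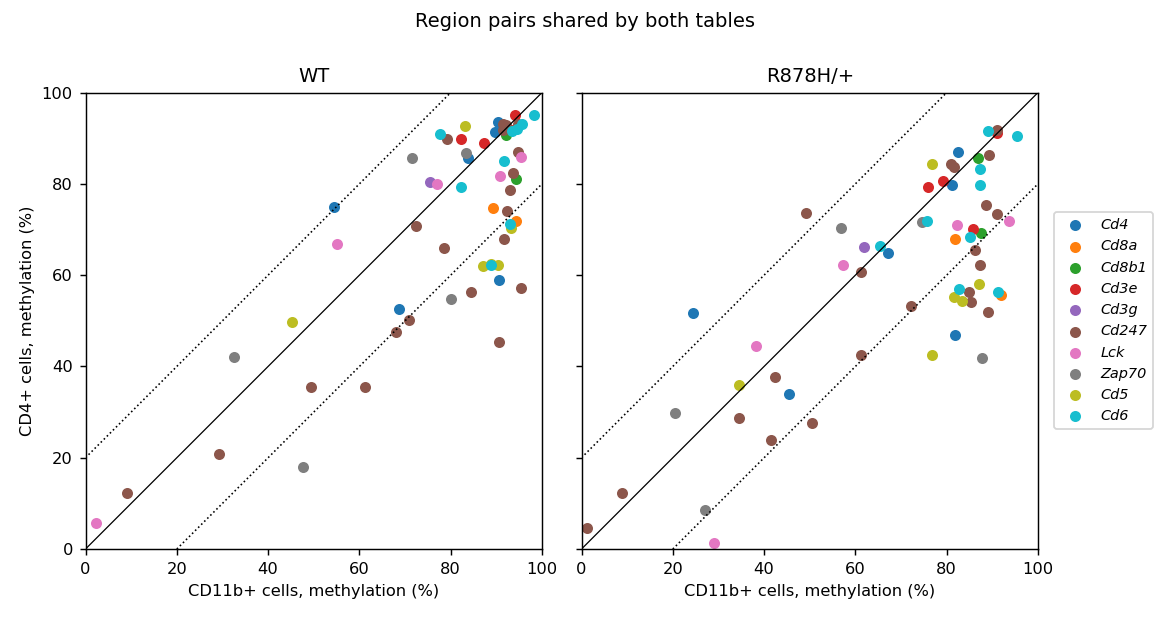
Methylation in percent of the 61 member region pairs in CD11b+ (x axis) and CD4+ cells (y axis) for WT (left) and R878H/+ (right). Points are pairs coloured by gene, the solid line is equality and dotted lines mark 20 points to either side; 17 pairs lie below the lower dotted line in each genotype, of which Cd247 and Cd5 hold 11 in WT and 10 in R878H/+.

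Marker genes of the cell types were read in the same way. Over all WT pairs, 1.26% were lower in CD4+ cells by over 20 points and 4.19% were higher. At 14 myeloid marker genes, WT CD4+ cells were higher than WT CD11b+ cells by over 20 points in 13 of 69 pairs and lower in 2. At the 10 T-cell marker genes, all members but Cd3d, Cd2 and Cd28, they were lower in 18 of 62 pairs and higher in 0. Outside the members only Cd2 (1) and Cd28 (2) had such pairs, so this list mostly repeats the member counts. B-cell genes had 3 of 30 pairs higher and 0 lower, and NK-cell genes 0 of 5 in either direction.

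Further genes of the receptor pathway were read from a list of 25, all of which had regions in both tables. Among them 5 had a hypomethylated DMR in CD4+ cells, and 3 had one in CD11b+ cells. The DMRs were 12 of 888 regions in CD4+ cells (1.35%, beside 0.665% of the table) and 3 of 710 in CD11b+ cells (0.423%, beside 0.576%). Fyn, a kinase related to Lck, had 3 intronic DMRs in CD4+ cells, which fell from 78.1% to 49.5%, from 72.7% to 37.8% and from 78.8% to 47.6%. Skap1, an adaptor that links the receptor to integrins, had 5, with the largest fall from 85.5% to 45.7%. Ptpn22, a phosphatase that acts on LCK and ZAP-70, had 2 upstream of its start, of which the nearer fell from 75.3% to 36.3%.

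Trat1, an adaptor that binds the zeta chain, had a DMR in both cell types. The fall there was from 74.7% to 31.8% in CD11b+ and from 83.1% to 46.7% in CD4+ cells. Grap2, an adaptor of LCP2, had 1 in CD11b+ cells, from 92.1% to 57.7%. Vav1, an exchange factor for small GTPases, had the one hypermethylated DMR of the list in each cell type, at its start, from 1.96% to 55.2% in CD11b+ and from 4.30% to 42.3% in CD4+ cells. Vav1-iCre carries regulatory DNA of Vav1, and reads from the transgene and from the gene itself cannot be told apart here.

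Over the 254 region pairs of the list, CD4+ cells were lower by over 20 points in WT in 20 pairs (7.87%, beside 1.26% of all pairs), among them pairs at Rhoh (4), Lcp2 (3), Cd28, Ptpn22 and Ubash3a (2 each), and Cd2, Csk and Skap1 (1 each). The widest gap was 49.3 points at Ubash3a, a negative regulator of the receptor. The 6 pairs with higher CD4+ means (2.36%, beside 4.19%) were at Skap1 (2), Ptpn22, Prkcq, Themis and Txk (1 each). The list had a median genotype difference of -7.49 points in CD11b+ and -8.75 points in CD4+ cells, the latter between the members and the whole table. Gains above 10 points in CD4+ cells were 11 of its 888 regions (1.24%, beside 0.182% of the table).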

How the data were processed

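WGBS libraries of 4 mice per genotype and cell type (18 library entries) were made with the Zymo-Seq WGBS kit. Alignment to mm10 by the authors used BISCUIT, and metilene gave the regions. Versions, metilene parameters and a coverage minimum are not given in the sources used here, and the submitters' notes add FastQC. The deposited tables give 2 group means per region in percent methylation, with the authors' q-value and number of CpGs. They also hold differences and p-values of the authors' comparison, which were not used. They have 0 columns of single mice and no read depth, so the precision of a mean is unknown.

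From these tables, differences were computed as R878H/+ minus WT. Starts were read as counted from 0 and converted to 1. All 112439 CD11b+ and 151076 CD4+ regions on the members' 5 chromosomes then began and ended on a CpG cytosine of GRCm38.p6, the sequence of mm10. Group means of regions with 10 CpG cytosines were whole multiples of 1/40 point (tolerance 0.02) in 100% of regions, as 4 mice per group would give. Genes came from GENCODE M21, and promoters (7 of 10 genes matched) from RefSeq on GRCm38.p6. "At the start" means within 1 kb of a protein-coding start. DMR criteria, window (10 kb), pairing overlap (50%) and gains (10 points) are stated in the text, and procedures were tested on simulated data. Members, lists and rules were chosen with earlier results of these data known. Named regions were each gene's DMRs, largest changes, regions nearest the start and widest pair. Some genes counted in the pathway list are not reported here by name. Alternatives were other windows, thresholds and overlaps. Tables were handled with pandas 2.3.3 and numpy 2.4.6 in python 3.11.15, binomial intervals with scipy 1.17.1, and plots with matplotlib 3.10.9.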

Additional observations from a re-analysis of the deposited data

How the results depend on the processing

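No paired analysis was possible because the tables hold 1 mean per group and no value per mouse, and for the same reason no mouse could be left out. Of 82 alternatives, 67 left a count within 1.5 times, or a median or share within its binomial interval over regions. That interval takes regions as independent, which they are not, and it is wide. It left the R878H/+ pair median unflagged at -13.3 points for gene bodies alone, beside -5.90 points. No median changed its sign, and counts have no direction to change. Hypomethylated DMRs in CD11b+ cells (1) became 2 with 20 kb on each side, 0 with a difference above 30 points, 7 without a q-value threshold and 0 without Cd247. Those in CD4+ cells (3) became 5 with a difference above 10 points and 14 without a q-value threshold. Region pairs lower in CD4+ cells by over 20 points (17 in each genotype) became 30 in WT and 33 in R878H/+ with any overlap of 1 bp, and 5 and 4 with an overlap of 80%. As shares of the pairs these were 24.6% in WT and 27.0% in R878H/+, and 29.4% and 23.5%, beside 27.9%. They became 3 and 7 above 30 points, 29 in R878H/+ above 10 points, and 10 and 11 without Cd247. Leaving out Cd247 or regions inside other genes, and a minimum of 10 CpGs, were chosen after seeing the data. Regions outside the tables, read depth and spread between mice limit every value.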
